A study of Homo sapiens with 11 samples.

Results

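The replication-dependent histone genes are short, mostly intronless genes that encode the linker histone H1 and the core histones H2A, H2B, H3 and H4. They were taken as the genes in the RNA-seq count tables whose GENCODE symbol is H1-1 to H1-5, or H2AC, H2BC, H3C or H4C followed by digits, on chromosomes 1 to 20. This rule found 59 of the 23167 genes listed, namely 5 H1, 14 H2A, 18 H2B, 9 H3 and 13 H4 genes. GENCODE release 44 holds 68 such symbols, and the other 9 (H2AC6, H2AC18, H2AC19, H3C2, H3C3, H3C14, H3C15, H4C14 and H4C15) are not analysed here. The study examined the histone variant macroH2A1.1 (mH2A1.1) in MDA-MB-231, an established triple-negative breast cancer cell line. RNA-seq of total RNA covered 2 WT libraries, from cells given the transfection reagent alone, and 2 mH2A1.1 KD libraries, from cells given siRNA against mH2A1.1 at 11 nM, all collected after 3 days. ChIP-seq of untreated cells used 1 library with an antibody against mH2A1.1 and 1 with an antibody against total mH2A1, and promoter capture Hi-C is not analysed here. Nothing in the labels says whether the RNA-seq libraries of a group came from separate cultures, so p-values measure only the spread between these libraries.

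Replication-dependent histone genes are transcribed mainly in S phase, when new DNA must be packaged. Their mRNAs usually end in a conserved stem-loop instead of a poly(A) tail, and the stem-loop binding protein SLBP holds it during processing, translation and decay. NPAT, a coactivator at the histone locus body, switches the genes on, and most of them lie in clusters on chromosomes 6 and 1. H2A and H2B genes often stand head to head around 1 shared promoter.

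The stem-loop sequences are shown first because they mark the 59 genes as a family. A 16-base stem-loop pattern that starts with GG, ends with CC and holds T at the sixth and the ninth base and A at the eleventh was searched on the sense strand within 150 bases after the stop codon. It was present in 59 of 59 members and in 198 of 18099 protein-coding genes of the count tables (1.09%), a set from which members were not removed. It began 22 to 62 bases after the stop codon. Sequences and positions are from GRCh38, positions cover the bases in capitals, and the capitals mark the 16 bases of the pattern.
H3C10 (chr6:27810516-27810531, plus strand): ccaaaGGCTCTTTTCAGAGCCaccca
H4C8 (chr6:26285131-26285146, minus strand): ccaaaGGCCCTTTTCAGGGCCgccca
H2BC12 (chr6:27146366-27146381, minus strand): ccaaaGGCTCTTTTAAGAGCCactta
H2AC20 (chr1:149887391-149887406, plus strand): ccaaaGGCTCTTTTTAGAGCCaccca
H2AC15 (chr6:27837885-27837900, minus strand): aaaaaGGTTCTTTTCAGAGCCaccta
H2BC10 (chr6:26273392-26273407, plus strand): ccaaaGGCTCTTCTAAGAGCCaccca
The H3C10 form was shared exactly by 33 of the 46 members outside H4 and the H2BC12 form by 8. The H4C8 form was shared by 10 of the 13 H4 genes, and the stem GGCCC with GGGCC stood in all 13 H4 genes and in none of the other 46 members. H2BC10, which had no counts in any library, kept a complete pattern.

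Promoters were described over 300 bases, from 250 before to 50 after the start of the gene, for the 54 members matched by symbol in RefSeq (GRCh38.p14). TATAAA on either strand stood in 36 of 54 (66.7%) against 11.95% of all 27305 promoters. CCAAT on either strand stood in 46 of 54 (85.2%) against 35.7% of all promoters. The 43 matched promoters outside H4 all held CCAAT, while 3 of 11 H4 promoters did. The 30 bases around TATAAA are shown for 5 members that the results below turn on, with the motif in capitals and positions covering all 30 bases.
H1-4 (chr6:26156288-26156317, plus strand): agctccgccctaTATAAAcgggcgggcgca
H3C10 (chr6:27810007-27810036, plus strand): tcagactctcacTATAAAtaagcggctagc
H4C2 (chr6:26027297-26027326, minus strand): ccgatgttcgtgTATAAAtgctcgtggctt
H4C11 (chr6:27824049-27824078, plus strand): cgccaactgtcgTATAAAggcgctgcctca
H4C12 (chr6:27831574-27831603, minus strand): cgccaactgtcgTATAAAggcgctgcctca
The H4C11 and H4C12 stretches were identical. TATAAA stood in 25 of the 30 matched promoters of members with enough reads for a test and in 11 of the 24 matched promoters of the others.

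The libraries held 9794674 and 7856892 counts in WT and 5584962 and 2309549 in KD. KD replicate 2 had 30 counts in all on chromosomes 21, 22 and X, against 367149 to 609961 in the others, so tests were run on chromosomes 1 to 20. Counts were scaled to a common library size (CPM). Across genes, which are not independent replicates, Pearson's r of log2 CPM was 0.994 for the WT pair and 0.959 for the KD pair. The cell line markers VIM, CD44, KRT8, KRT18, EGFR and AXL were all detected, with VIM at 2318 to 4733 CPM. Of the markers of other receptor states, ESR1 and PGR had no counts, FOXA1 had 1 count in all and GATA3 was at 17.8 to 24.6 CPM. Of 6 genes listed as markers of other cell types, 3 passed the filter. The 6 summed to 32.8 and 34.4 CPM in WT and 48.1 and 58.7 CPM in KD, mostly from EPCAM and COL1A1. EPCAM is an epithelial gene that a carcinoma line can itself express, so this sum does not measure other cell types. MACROH2A1, which encodes the targeted variant, was at 385 and 394 CPM in WT and 274 and 301 CPM in KD. Its counts hold both splice forms, so they do not check the loss of mH2A1.1 itself.

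Over the WT and KD libraries together, 34 of the 59 histone genes passed the filter on low counts and were tested. The other 25 did not (42.4%, beside 48.6% of all genes on these chromosomes). The tested genes covered all 5 classes, with 2 H1, 8 H2A, 13 H2B, 4 H3 and 7 H4 genes. Per kb of annotated exon, the linker histone genes H1-4 and H1-2 had the highest WT levels, at 1336 and 933 CPM per kb. H2BC12 followed at 789, H2AC11 at 627 and H4C3 at 494 CPM per kb, and the highest of the named H3 genes, H3C13, was at 85.9 CPM per kb. These orders depend on the annotated exons, which for 11 of the 32 tested core histone genes run to between 858 and 4265 bp and for the other 21 to between 387 and 569 bp.

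Histone genes as a whole made up 0.509% and 0.596% of the counts in WT, 0.534% in KD replicate 1 and 0.918% in KD replicate 2. The core histone genes summed to 3245 and 3966 CPM in WT, 3777 CPM in KD replicate 1 and 8962 CPM in KD replicate 2. The sum in KD replicate 1 lay between the WT libraries, and that in KD replicate 2 was 2.49 times the WT mean. The H1 genes summed to 1672 and 1796 CPM in WT, 1492 CPM in KD replicate 1 and 1053 CPM in KD replicate 2. Unlike for the core genes, both KD values of H1 lay below both WT values.

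Over all members, the mean summed level was 5340 ± 598 CPM in WT and 7642 ± 3356 CPM in KD (SD, n = 2 each), a log2 ratio of 0.52 with no test. The KD standard deviation was larger than the difference of the means. With bulk RNA, more cells in S phase and more histone mRNA per cell cannot be told apart. Duplicate reads were removed before counting, without molecular identifiers, and coverage of the tested members was dense, at a median of 0.816 reads per base in WT replicate 1 and 0.462 in KD replicate 2, beside 0.0663 and 0.0141 for all genes tested. With smooth trends over read density as offsets, the median log2 fold change of the members was 0.34 in place of 0.77. Read density was taken as mean CPM per kb of annotated exon, so these offsets also depend on annotated length. The part of duplicate removal was not tested.

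**Figure D1:**
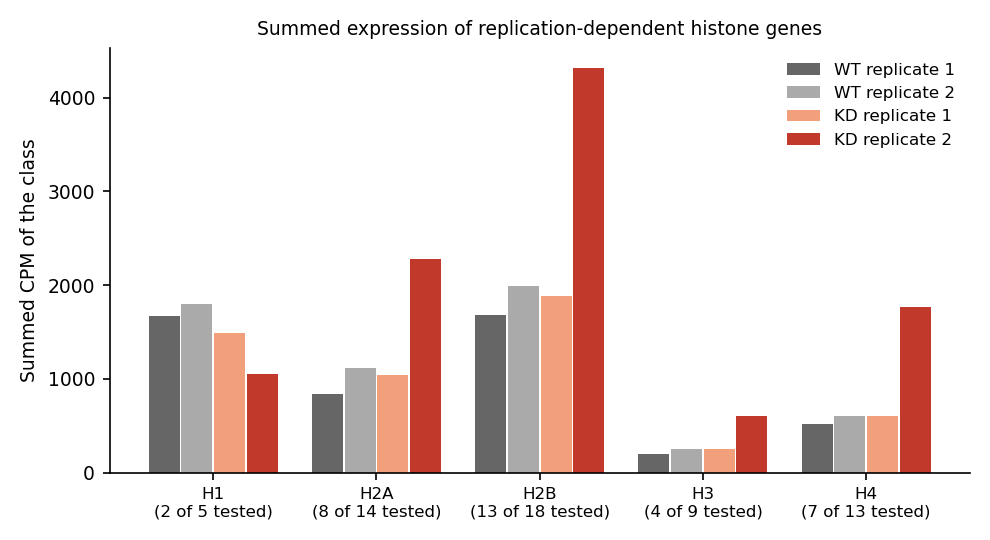
Summed CPM (y axis) of all members of each histone class (x axis) in the 4 RNA-seq libraries, 1 bar per library. Core classes in KD replicate 2 stand at 2.34 (H2A) to 3.13 (H4) times the WT mean, core classes in KD replicate 1 stand at 1.02 to 1.09 times the WT mean, and H1 lies below WT in both KD libraries.

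Among H4 genes, which encode the core histone with the fewest variants, the summed level was 519 and 608 CPM in WT, 601 CPM in KD replicate 1 and 1765 CPM in KD replicate 2. H4C8 was at 119 and 143 CPM in WT and at 140 and 484 CPM in KD. H4C2 was at 124 and 144 CPM in WT and at 128 and 483 CPM in KD. In both genes, KD replicate 1 fell between the WT libraries and KD replicate 2 stood above all others. H4C3 was at 183 and 217 CPM in WT and at 217 and 490 CPM in KD. H4C1 was at 32.4 and 37.8 CPM in WT and at 40.7 and 130 CPM in KD, and H4C16, the only member on chromosome 12, at 46.4 and 45.6 CPM in WT and at 56.8 and 133 CPM in KD. For these last genes, H4C1 and H4C16, the groups did not overlap.

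The replication-dependent H3 genes encode the H3 that is laid down at replication forks. H3C10 was at 86.9 and 102 CPM in WT and at 113 and 329 CPM in KD, with no overlap of the groups. H3C12 was at 41.6 and 62.7 CPM in WT and at 54.5 and 124 CPM in KD. H3C13 was at 35.5 and 45.04 CPM in WT and at 40.3 and 82.4 CPM in KD. In H3C12 and H3C13, KD replicate 1 lay within the WT range.

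H2A genes pair with H2B in the nucleosome. H2AC11 was at 261 and 358 CPM in WT and at 298 and 577 CPM in KD. H2AC20 was at 141 and 177 CPM in WT and at 202 and 431 CPM in KD, and H2AC12 at 120 and 163 CPM in WT and at 144 and 443 CPM in KD. H2AC15 was at 24.2 and 29.0 CPM in WT and at 31.0 and 93.2 CPM in KD. Both KD libraries were above both WT libraries for H2AC20 and H2AC15, whereas KD replicate 1 lay between the WT libraries for H2AC11 and H2AC12.

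Among H2B genes, H2BC12 was at 356 and 425 CPM in WT and at 367 and 823 CPM in KD. H2BC5 was at 268 and 303 CPM in WT and at 304 and 684 CPM in KD, and H2BC4 at 277 and 314 CPM in WT and at 324 and 615 CPM in KD. KD replicate 1 was within the WT range for H2BC12 and just above it for H2BC5 and H2BC4, and KD replicate 2 was the highest library in each. The linker histone genes differed from these in the direction of the values. H1-4 was at 1014 and 1090 CPM in WT and at 861 and 581 CPM in KD, and H1-2 at 658 and 707 CPM in WT and at 631 and 472 CPM in KD, with KD below WT in both genes. The third H1 gene by level, H1-1, had 1 count in WT replicate 2 and none elsewhere.

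The edgeR quasi-likelihood test of KD against WT, with p-values adjusted over all 10943 genes tested and calls made where the adjusted p was under 0.1 with over 1.5 times between the groups, called 0 of 34 members, beside a background of 0.0% of all genes. The smallest adjusted p of any gene was 0.175. At an unadjusted p under 0.05 were 8 of the 34 members and 2541 of all genes (23.2%), and 8 of 34 is a share close to that background. The 5 members with the smallest p were H2AC20 (log2 fold change 0.99 ± 0.35 SE), H4C16 (1.02 ± 0.37), H3C10 (1.21 ± 0.45), H4C1 (1.24 ± 0.48) and H2AC15 (1.17 ± 0.47), at adjusted p between 0.194 and 0.206. For H1-4 the log2 fold change was -0.54 ± 0.23 at an adjusted p of 0.216, and for H1-2 it was -0.31 ± 0.20 at an adjusted p of 0.362. The SE values here and below are the absolute log2 fold change divided by the square root of the test's F statistic.

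The fitted log2 fold changes of the tested members had a median of 0.77, beside 0.01 for all genes tested, and 31 of 34 were above 0. The medians by class were 1.02 for H4, 0.76 for H2A, 0.66 for H2B, 0.66 for H3 and -0.42 for H1. Both KD libraries were above both WT libraries in 10 members (32.5% of all genes tested) and below in 2, H1-4 and H1-2 (32.4% of all genes). Taken alone, KD replicate 1 had a median log2 ratio to the WT mean of 0.07 over the tested members and exceeded the WT mean by over 1.5 times in 0 of 34 (4.2% of all genes). KD replicate 2 had a median of 1.25 and exceeded it by over 1.5 times in 29 of 34 (23.9% of all genes). The WT libraries differed too, since WT replicate 2 was above WT replicate 1 in 33 of 34 members (49.0% of all genes), with a median log2 ratio of 0.26.

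**Figure D2:**
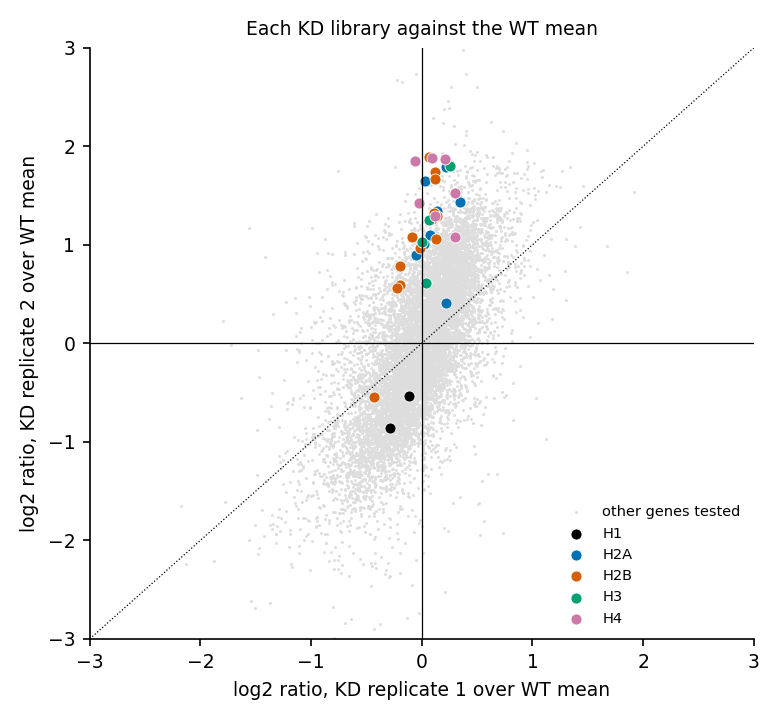
Log2 ratio of KD replicate 1 (x axis) and of KD replicate 2 (y axis) to the WT mean for each gene tested, with a pseudocount of 0.5 CPM. Members are coloured by class, other genes are grey and the dotted line marks equal ratios; the core histone genes stand near 0 on the x axis (all members, median 0.07) and high on the y axis (median 1.25), and the H1 genes lie below 0 on both.

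The calls turned on the KD libraries and on the tool. Without KD replicate 1, 30 of 34 members were called, 29 of them higher in KD (20.4% of all genes were called higher), and without KD replicate 2 edgeR called 0, with 4 at an unadjusted p under 0.05 (8.06% of all genes were called). The median log2 fold change was 1.26 without KD replicate 1 and 0.08 without KD replicate 2. DESeq2, the tool of the study, run on the same chromosomes, called 8 of the 31 members with an adjusted p, all higher in KD, namely H2BC21, H2AC20, H4C16, H4C1, H2AC12, H3C10, H2AC15 and H2BC17 (5.57% of all genes with an adjusted p were called higher). On the whole table, with chromosomes 21, 22 and X, DESeq2 called 0 of 32 members, beside 945 of all 9262 genes with an adjusted p. There, 6 of the 40 members fitted had an unadjusted p under 0.05. On that table edgeR called 0 of 34 members, beside 0 of all 11723 genes, with 0 members at an unadjusted p under 0.05. The shares of all genes at that unadjusted p are not given here, so neither count can be set against a background. Without the filter on low counts, edgeR called 20 of 40 members higher (6.82% of all genes). With the replicate number as a block it called 20 of 34 higher (9.77% of all genes), and with the block and the length and GC offsets described next it called 8, of which 5 were higher and 3 lower (8.87% of all genes were called).

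Gene length and base composition moved with the result. The tested members had a median exon length of 496.5 bp and a median exon GC content of 57.1%, beside 5615 bp and 47.1% for all genes tested. Among the genes that are no members, the median log2 fold change was 0.44 for the 75 with exons under 700 bp and -0.11 for the 3038 with exons over 8000 bp. It was 0.44 for the 2765 genes with an exon GC content over 55% and -0.34 for the 4610 genes under 45%. With smooth trends over length and GC content taken out of each library as offsets, the median of the members turned from 0.77 to -0.09, with 15 of 34 above 0.

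The offsets are a function of annotated length, so a split of the corrected values by length follows from their construction and is given as a description. The 21 core histone genes with exons under 700 bp had a median corrected log2 fold change of -0.18, and the 11 with longer annotated exons had 0.61, whereas without offsets the medians were 0.69 and 0.82. H4C8, annotated at 2163 bp, was at 1.17 and H4C2, annotated at 388 bp, at 0.16. H1-4 and H1-2 went to -1.21 and -0.97, at adjusted p of 0.108 and 0.13 in edgeR. With the block and the offsets both were among the 3 lower calls, at -1.43 and -1.13 (edgeR adjusted p 4.9e-17 and 9.1e-12). The block takes a further coefficient from 4 libraries, so those p-values rest on little measured spread. With KD replicate 2 as the only KD library and no offsets, H1-4 was at -0.87 and H1-2 at -0.54. With KD replicate 1 as the only KD library, H1-4 was at -0.28 and H1-2 at -0.11. Of the 5 members with the smallest p, the offsets moved the log2 fold change of H2AC20 to 0.0062, of H2AC15 to 0.13, of H4C1 to 0.19, of H3C10 to 0.66 and of H4C16 to 0.75. The single call in edgeR with offsets was H2BC14, chosen here after its values were seen, at a log2 fold change of -0.64 (6.54% of all genes were called, 3.66% lower in KD). Which transcript forms the reads came from was not tested, since the tables hold 1 count per gene.

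**Figure D3:**
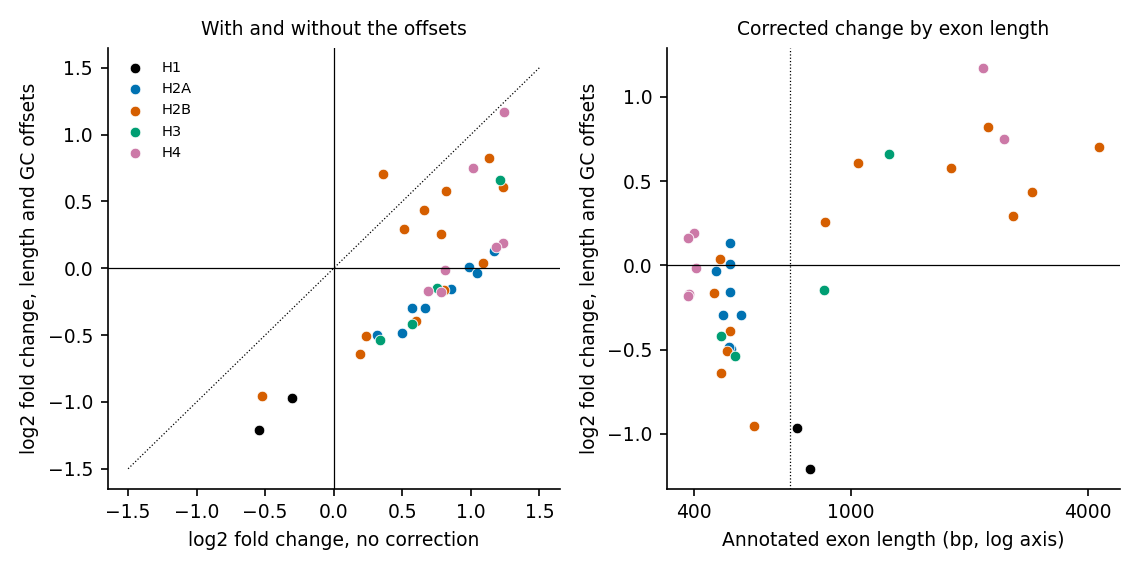
Left, log2 fold change of the 34 tested members without correction (x axis) against that with gene length and GC offsets (y axis), the dotted line marking equality. Right, the corrected value against annotated exon length on a log axis, with a dotted line at 700 bp; the 21 short core histone genes centre on -0.18 and the 11 long ones on 0.61.

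The 25 members that did not pass the filter were at or near 0 in every library. Of these, 19 had no count in any of the 4 libraries and the largest single count among the rest was 4. A count of 0 allows up to 3 counts, which is 0.316 to 0.568 CPM in the other libraries and 1.42 CPM in KD replicate 2. H2AC1, H1-1, H4C9 and H2AC17 stood singly, and the others stood in runs of neighbouring members. A run of 15 neighbouring members, from H4C4 to H2BC10 (chr6:26188710-26273412), had 3 counts in all, and the genes on either side were expressed, H2BC6 with 238 and 237 counts in WT and 147 and 117 in KD, and H4C8 with 1128 and 1088 counts in WT and 740 and 1023 in KD. This run holds H1-3, a linker histone gene with no count in any library, which was chosen after its values were seen. A second run of 4 members, H2AC16, H1-5, H3C11 and H4C13 (chr6:27865317-27873534), had no count in any library. The tables list no other gene within either run. The third run was the chromosome 1 pair H2AC25 and H2BC26, with 1 count in all. Whether these zeros reflect the genome of these cells, transcription or the annotation behind the counts was not tested.

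Every 50-base window of the members' exons was searched in the genome on both strands, since htseq-count at default settings leaves out reads that map to several places. At least 97.2% of the windows were unique in each of the 15 genes and at least 96.8% in each of the 4. Of the 25 members that did not pass the filter, 15 had unique windows only and the lowest share was 93.0%. The 8 members with under 80% unique windows all passed the filter. H4C11 and H4C12, whose promoter stretches above are identical, had 7.94% and 7.4% unique windows, and were at 6.11 and 7.24 CPM and at 8.74 and 12.9 CPM in WT. Levels of these members, and of H2BC18, H3C13, H2AC13, H2AC14, H2BC12 and H2AC20, at 27.9% to 76.0% unique windows, are uncertain, because reads shared with a near-identical copy are not in the counts.

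**Figure D4:**
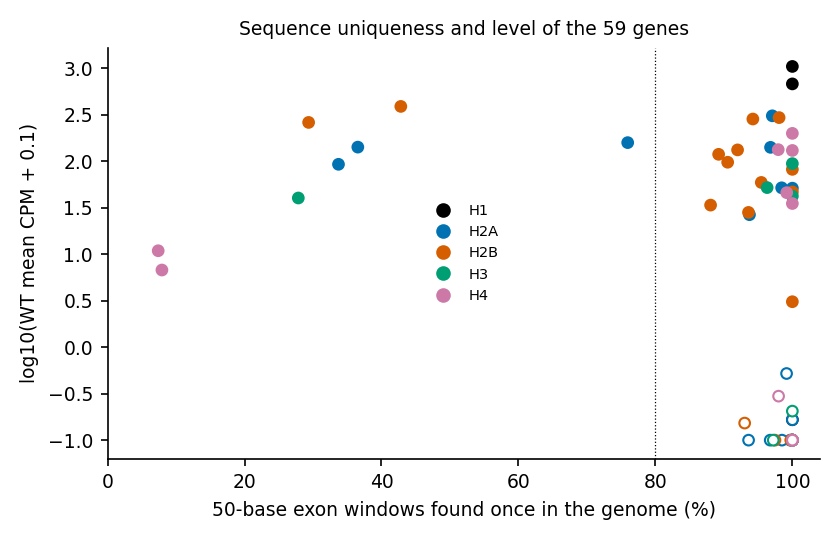
Share of 50-base exon windows found once in the genome (x axis, %) against log10 of the WT mean CPM plus 0.1 (y axis) for the 59 members, coloured by class. Open symbols are the 25 members that did not pass the filter, all at 93.0% or more, and the dotted line at 80% separates the 8 members with less unique sequence.

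Overlapping annotation touched a few members. Exons of H2AC17, which had no counts, share 346 bp with those of H3C12 on the same strand, and reads that fit both genes are left out by the counting. Exons of H2BC4 share 430 bp with HFE on the opposite strand, those of H2BC18 share 177 bp with FCGR1A and those of H2AC21 share 76 bp with BOLA1. Whether the counting used the right strand was not tested, so values of these genes are uncertain.

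Of the H2A and H2B genes, 11 pairs stood head to head with start sites 194 to 251 bp apart. Both genes of a pair passed the filter in 6 pairs and neither did in 3. In the other 2, only the H2B gene passed: H2BC17 had 107 and 131 CPM in WT beside no counts for H2AC17, and H2BC1 had 1.90 and 4.08 CPM beside 0.316 and 0.527 CPM for H2AC1, a gene of the testis-type group. Fold changes within a pair could lie far apart, as in H2AC15 (1.17) and H2BC15 (0.36) or in H2AC11 (0.50) and H2BC11 (1.23), on the log2 scale. The difference within pairs was not tested.

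Macro-histone binding was read from the deposited peak lists of WT cells, with 30687 mH2A1.1 peaks and 24222 mH2A1 peaks, each from 1 library. An mH2A1.1 peak lay within 500 bp of the TSS of 24 of 59 members, or 40.7% (95% exact binomial interval 28.1% to 54.3%), beside 38.0% of all genes. An mH2A1 peak lay there in 9 of 59 members, or 15.3% (7.22% to 27.0%), beside 20.6% of all genes. These intervals cover counting error only, and neighbouring members share peaks, so they are too narrow. An mH2A1.1 peak that overlaps an mH2A1 peak, called a common peak, lay at 5 members, or 8.47% (2.81% to 18.7%), beside 23.6% of all genes. The 5 were H2AC25, H2BC26, H4C3, H3C10 and H2AC16. At H4C3 the common peak was an mH2A1.1 peak of 21000 bp, and the nearest mH2A1 peak lay 12933 bp from the TSS. Within 5000 bp of the TSS, 38 members had an mH2A1.1 peak (51.2% of all genes) and 20 an mH2A1 peak (35.2% of all genes).

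By expression, mH2A1.1 peaks lay at 19 of the 34 members that passed the filter and at 5 of the 25 that did not, beside 47.4% and 30.1% of the genes on these chromosomes. For mH2A1 the counts were 3 of 34 and 6 of 25, beside 17.0% and 25.4%, and for common peaks 2 of 34 and 3 of 25, beside 25.7% and 22.9%. Among the tested members, the median log2 fold change was 0.79 for the 19 with an mH2A1.1 peak at the TSS and 0.75 for the 15 without.

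On chromosome 1, an mH2A1.1 peak at chr1:149883001-149889000 covered the start sites of H2AC20, H2AC21 and H2BC21, and one at chr1:149811001-149814000 those of H3C13 and H2BC18. No mH2A1 peak touched this cluster of 5 expressed genes. The pair H2AC25 and H2BC26, with 1 count between them, lay in a domain of 57000 bp for mH2A1.1 and 54000 bp for mH2A1, of which 48000 bp were shared.

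On chromosome 6, mH2A1.1 peaks covered 16.5% of the first cluster, from H2AC1 to H4C8, and 16.4% of the second, from H2BC11 to H2BC17, beside 9.4% of the genome. For mH2A1 the shares were 8.54% and 16.02%, beside 7.87% of the genome. In the first cluster, mH2A1.1 peaks held the start sites of H4C2 and H2AC4 (chr6:26025001-26034000), H1-2 (chr6:26055001-26061000), H4C3 (chr6:26085001-26106000), H2BC4 (chr6:26121001-26127000), H1-4 and H2BC5 (chr6:26154001-26163000) and H4C8 (chr6:26283001-26286000). All of these genes were expressed. In the same cluster, H2BC1, H3C1, H4C1, H2BC3 and H2BC6 also passed the filter but had no mH2A1.1 peak within 500 bp of the TSS. H2AC7, which had no counts, had an mH2A1.1 peak 293 bp from its TSS. Within the run of 15 genes at or near 0, mH2A1.1 peaks lay at chr6:26196001-26199000 over the start of H3C4, at chr6:26208001-26211000 and at chr6:26256001-26259000, and mH2A1 peaks at chr6:26208001-26217000 over the starts of H2BC8 and H2AC8 and at chr6:26232001-26235000 over that of H1-3. In the run of 4 genes with no counts, both lists held the same peak, chr6:27864001-27867000, over the start of H2AC16.

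**Figure D5:**
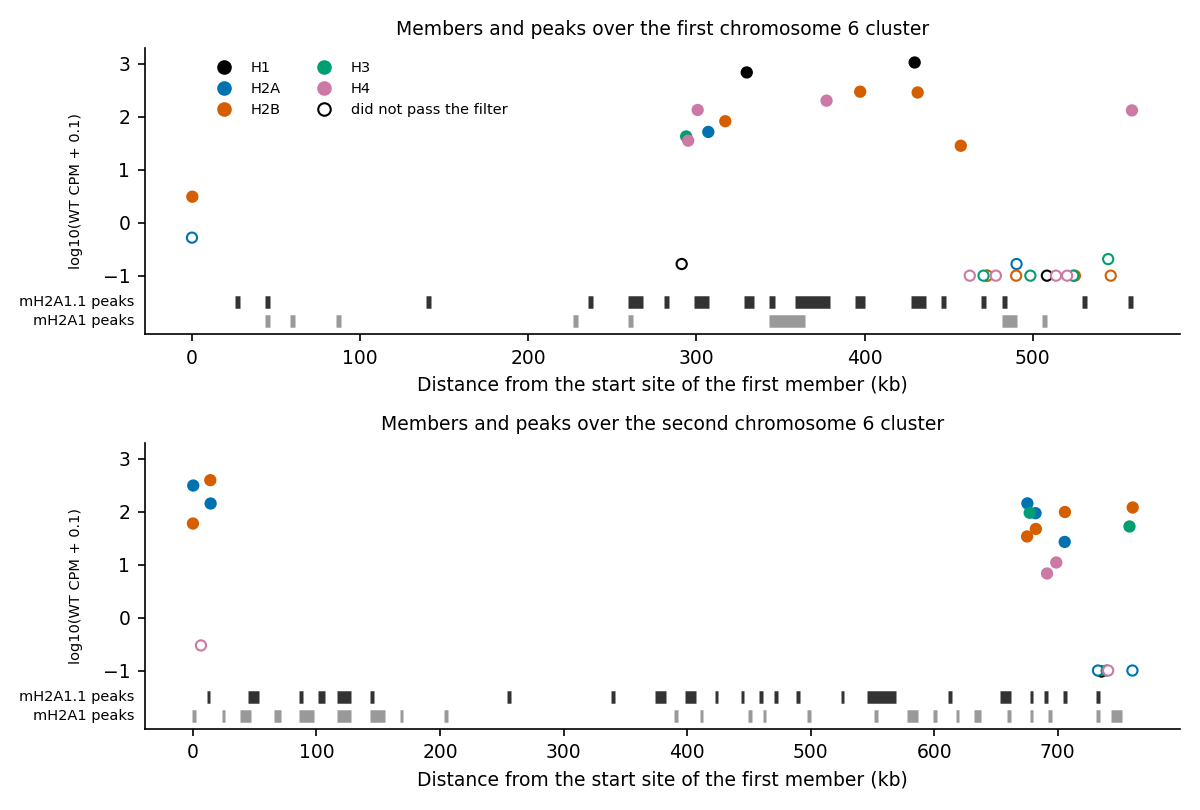
WT level of each member (y axis, log10 of mean CPM plus 0.1) against the distance of its start site from that of the first member (x axis, kb) in the 2 chromosome 6 clusters, with peaks of both lists as bars below. Open symbols did not pass the filter; the run of 15 such genes lies at the right of the first cluster, before H4C8, and the run of 4 near the right end of the second.

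The genes that serve histone supply were described from lists of companions, of which edgeR called 0 in any list. SLBP stands both in the first list and in that of S phase genes. For transcription and 3′ processing of histone mRNA, 25 genes were tested, with a median log2 fold change of -0.08 and 5 at an unadjusted p under 0.05 (23.2% of all genes), 2 higher and 3 lower. Both KD libraries were above both WT libraries in 8 of the 25 (32.5% of all genes) and below in 11 (32.4% of all genes). SLBP was at 94.6 and 106 CPM in WT and at 84.0 and 76.2 CPM in KD, below WT in both libraries (log2 fold change -0.32 ± 0.18 SE, adjusted p 0.298 in edgeR). NPAT was at 140 and 129 CPM in WT and at 103 and 51.1 CPM in KD (-0.77 ± 0.31, adjusted p 0.208). CASP8AP2, also known as FLASH, which joins NPAT at the histone locus body, was at 95.1 and 87.7 CPM in WT and at 68.9 and 42.1 CPM in KD (-0.69 ± 0.25, adjusted p 0.195). All 3 had lower values in both KD libraries than in WT. With the length and GC offsets NPAT was at -0.28, CASP8AP2 at -0.20 and SLBP at -0.58. Without KD replicate 1 and without KD replicate 2, NPAT was at -1.40 and -0.38, and CASP8AP2 at -1.13 and -0.41.

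Of 16 histone chaperones tested, with a median of -0.26, 4 had an unadjusted p under 0.05 (23.2% of all genes), all with lower values in KD. Of 37 S phase genes, with a median of -0.34, 12 did, all lower, and of 24 G2/M genes, with a median of -0.44, 11 did, all lower. PCNA, the sliding clamp of replication, was at 174 and 194 CPM in WT and at 165 and 196 CPM in KD, with overlapping groups (log2 fold change -0.03 ± 0.19 SE, adjusted p 0.938 in edgeR). KD values lay below WT values without overlap for 23 of the 37 S phase genes, 18 of the 24 G2/M genes and 0 of the 32 tested core histone genes (32.4% of all genes). DESeq2 called 5 S phase genes and 8 G2/M genes, all lower in KD (5.78% of all genes were called lower). The median log2 ratio to the WT mean of the S phase genes was -0.31 in KD replicate 1 and -0.39 in KD replicate 2. For the tested core histone genes it was 0.08 and 1.27. Summed, the S phase genes were at 4575 and 4821 CPM in WT, 3774 CPM in KD replicate 1 and 4388 CPM in KD replicate 2. The core histone sums of these KD libraries were 3777 and 8962 CPM. What these differences reflect was not tested.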

How the data were processed

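The authors aligned RNA-seq reads to GRCh38 with STAR 2.5.1, removed reads of low mapping quality and duplicates, and counted reads per gene with htseq-count at default settings; the deposited values are these raw counts. The annotation behind them is not given in the sources used here, and 23061 of 23167 identifiers matched GENCODE release 44. The other deposited values are peak positions in base pairs, called by the authors against the input on a grid of 3000 bp, from 1 library per antibody; no other column was used.

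Counts of chromosomes 1 to 20 were tested with edgeR 4.0.16 (TMM factors 0.918 to 1.04, its filter on low counts, quasi-likelihood test) in R 4.3.3, with Benjamini-Hochberg adjustment over all genes tested. The biological coefficient of variation was 0.166. Depth, 2309549 to 9794674 counts per library, limits precision, and intervals cover counting error only. CPM used TMM library sizes. Alternatives were DESeq2 1.42.0, other scalings, filters and offsets (lowess span 0.3), thinning and leaving out each library. Python 3.11.15 and scipy 1.17.1 gave the rest.

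Members and lists were chosen with earlier results of these data known. Named genes were the 3 members of each class with the highest mean CPM, called members, the 5 with the smallest p, and SLBP, NPAT, CASP8AP2, PCNA and MACROH2A1. Others named were chosen after their values were seen.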

Additional observations from a re-analysis of the deposited data

How the results depend on the processing

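Called histone genes numbered 0 in edgeR, 8 with DESeq2, 20 without the filter on low counts, 1 with length and GC offsets, and 0 to 30 when 1 library was left out, the 30 without KD replicate 1. Over all genes the calls were 0 in edgeR, 878 with DESeq2, 945 with DESeq2 on the whole table, 2143 without the filter, 716 with offsets, 56 after thinning to the shallowest library, and 2 to 4735 when 1 library was left out. Over the companion lists they were 0, 17 with DESeq2, 14 with DESeq2 on the whole table, 27 without the filter, 15 with offsets, 1 after thinning, and 0 to 54 when 1 library was left out. The median log2 fold change of the members, 0.77, was -0.090 with offsets and ran from 0.082 (without KD replicate 2) to 1.26 (without KD replicate 1). The summed log2 ratio, 0.52, ran from -0.016 to 0.90 over the same omissions. The share of TSSs with an mH2A1.1 peak, 40.7%, was 64.4% within 5000 bp, 8.47% for common peaks and 6.78% for stretches in both lists, and that with an mH2A1 peak, 15.3%, was 33.9% within 5000 bp. A fit that left out 1 library holds a single library in that group and does not measure its spread. The cause of these shifts was not tested.

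Whether the replicate numbers shared by WT and KD mark pairs cannot be told from 2 libraries per group. Deviations of replicate 1 from the group means correlated at 0.25 between WT and KD over genes, and nothing in the labels ties the numbers. With the replicate block, calls numbered 20 among the histone genes, 2200 over all genes and 27 in the companion lists. With the block and the offsets they numbered 8, 971 and 17, and the median of the members was -0.091.

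Log2 fold changes that turned sign with the offsets, without and with the block, were those of H2AC11 (-0.48 and -0.48), H2AC12 (-0.032 and -0.047), H2BC12 (-0.39 and -0.39), H3C12 (-0.15 and -0.13), H3C13 (-0.42 and -0.42) and H4C3 (-0.016 and -0.023). With read density offsets, chosen after seeing the data as was DESeq2 on the whole table, H2AC11 was at -0.17 and H2BC12 at -0.15. Leaving out 1 library, H2AC11 ran from -0.046 to 0.89, H2BC12 from -0.084 to 1.07 and H4C2 from -0.053 to 1.85, each lowest without KD replicate 2 and highest without KD replicate 1. PCNA ran from -0.15 without KD replicate 2 to 0.086 without KD replicate 1, and was at 0.052 without WT replicate 2. None of the 22 named genes fitted turned sign with DESeq2, with other size factors, without the filter, on the whole table, after thinning or with the block alone. KD replicate 2, with 2309549 counts, is the shallowest library and sets the floor for low genes. The paper also reports for it the lowest share of uniquely mapped reads among the RNA-seq libraries.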

Other observations

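The coding genes that share the chromosome 6 interval with the histone clusters (SCGN to ZKSCAN8, chr6:25652201-28159460) numbered 26 in the tables, of which 15 passed the filter. Their fitted log2 fold changes ran from -0.75 for ZNF322 to 0.37 for ABT1, with a median of -0.02. Of these genes edgeR called 0, and 0 had an unadjusted p under 0.05 (23.2% of all genes). Against the WT mean, their median log2 ratio was 0.08 in KD replicate 1 and -0.27 in KD replicate 2, where the tested histone genes had 0.07 and 1.25. ABT1, a factor of ribosome assembly, was at 38.0 and 44.1 CPM in WT and at 42.9 and 65.3 CPM in KD, and BTN2A1, a butyrophilin, at 81.2 and 79.5 CPM in WT and at 88.2 and 116 CPM in KD. The butyrophilin genes BTN3A2, BTN2A2, BTN3A1, BTN3A3 and BTN2A1 had log2 fold changes of 0.18 to 0.34, at adjusted p of 0.316 or more in edgeR.

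Replacement histone genes are expressed outside S phase and carry poly(A) tails. Those tested mostly had KD replicate 2 values closer to WT than the core histone genes did. Exceptions were H2AJ and H1-10, whose log2 fold changes of 0.97 and 0.90 were above the median of 0.78 for the tested core histone genes. H3-3A was at 125 and 123 CPM in WT and at 124 and 110 CPM in KD, and H3-3B at 357 and 366 CPM in WT and at 359 and 324 CPM in KD. H2AZ1 was at 220 and 238 CPM in WT and at 192 and 261 CPM in KD. The highest ratios were those of H2AJ, at 12.4 and 13.04 CPM in WT and 17.6 and 35.03 CPM in KD, of H1-10, at 22.02 and 22.12 CPM in WT and 29.1 and 55.9 CPM in KD, and of H2AX, whose mRNA can also end in a stem-loop, at 189 and 210 CPM in WT and 194 and 309 CPM in KD. None of the 9 tested was called by edgeR, and 4 had an unadjusted p under 0.05 (23.2% of all genes). Of these 4, H2AJ and H1-10 were higher in KD, and H2AZ2 and MACROH2A1 were lower. H2AZ2 was at 355 and 338 CPM in WT and at 252 and 263 CPM in KD. All genes of these paragraphs were chosen after their values were seen.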
